A study of Mus musculus with 15 samples.

Results

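The 15 libraries of this series, each made from the jejunal epithelial isolate of 1 mouse, were ranked by their CPM (counts per 1000000 counts of the library) of Ptprc, and the 5 highest were set against the 5 lowest. Ptprc encodes CD45, the surface phosphatase that almost all leukocytes carry and epithelial cells lack. The members are therefore 10 of 15 libraries, with 5 libraries between the 2 sides. Both sides were chosen by a measured value, so every difference between them below is a description and carries no test. The question put to them was which immune, stromal and epithelial transcripts were high where Ptprc was high.

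All mice were CC027/GeniUnc, a Collaborative Cross strain, and the labels give neither age nor sex. The mice received 2 mg of crude peanut extract or PBS into the stomach once weekly for 3 weeks and 5 mg or PBS once in week 4. The 5 groups of 3 mice were PBS-treated and unchallenged, peanut-sensitized and unchallenged, and peanut-sensitized and killed 30, 60 or 120 min after an oral challenge with 12 mg of peanut. For every mouse, 4 cm of jejunum beginning 6 cm beyond the pylorus was held for 75 min at room temperature in buffer with EDTA (2 mM) and DTT (0.5 mM) and then shaken, and polyadenylated RNA of the released cells was sequenced in paired reads of 151 bp. Libraries are named here by group and a replicate number in order of deposit, which pairs nothing across groups.

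EDTA chelates calcium and loosens the contacts that hold the epithelial sheet to the tissue beneath it. The sheet is not purely epithelial in life: intraepithelial lymphocytes, mostly CD8-positive T cells armed with granzymes, sit between the enterocytes and are held there by the integrin CD103, which binds E-cadherin. The lamina propria beneath holds IgA plasma cells, CD4 T cells, macrophages and dendritic cells, fibroblasts and vessels, and lymphoid follicles of B cells are set along the gut wall. An epithelial isolate can carry any of these cells.

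Each library held between 15661513 and 22691349 estimated counts, and Epcam, the pan-epithelial adhesion molecule, lay between 754 and 1416 CPM in all 15. A pair of libraries stood apart before any ranking. The 30-min replicate 1 had a summed level of 294 CPM over 15 fibroblast genes, against 7.64 to 25.1 in the other 14 libraries, and this library ranked first in Ptprc. The 60-min replicate 3 gave 33.2% of its counts to the 13 mitochondrially encoded genes, against 13.8 to 26.7% elsewhere, and ranked in the middle. Results that rest on the 30-min replicate 1 are given with and without it. Levels below are CPM scaled by the trimmed mean of M-values (TMM) unless another scale is named.

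On the plain CPM scale used for ranking, Ptprc (ENSMUSG00000026395.16, chr1:138062861-138175708, minus strand, mouse GRCm38) stood at 83.1 in the 30-min replicate 1, 76.2 in the sensitized replicate 3, 58.6 in the PBS replicate 1, 58.3 in the 30-min replicate 3 and 56.6 in the PBS replicate 2. These 5 are called the high libraries. The low libraries were the sensitized replicate 2 at 23.5, the 60-min replicate 2 at 19.2, the 120-min replicate 2 at 17.5, the 30-min replicate 2 at 15.0 and the 120-min replicate 3 at 8.14. Wherever 5 values are listed below for a side, they stand in these orders. The borders of the sides were not alike. The library just outside the high side, the PBS replicate 3, was at 56.2, almost level with the last one inside, while the other middle libraries stood at 37.2, 24.6, 24.2 and 23.8, the last of which was almost level with the first low library. Behind these values stood 1004 to 1878 Ptprc counts in each high library and 180 to 414 in each low one. In such bulk samples fewer leukocytes and less Ptprc RNA per leukocyte cannot be told apart.

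**Figure D1:**
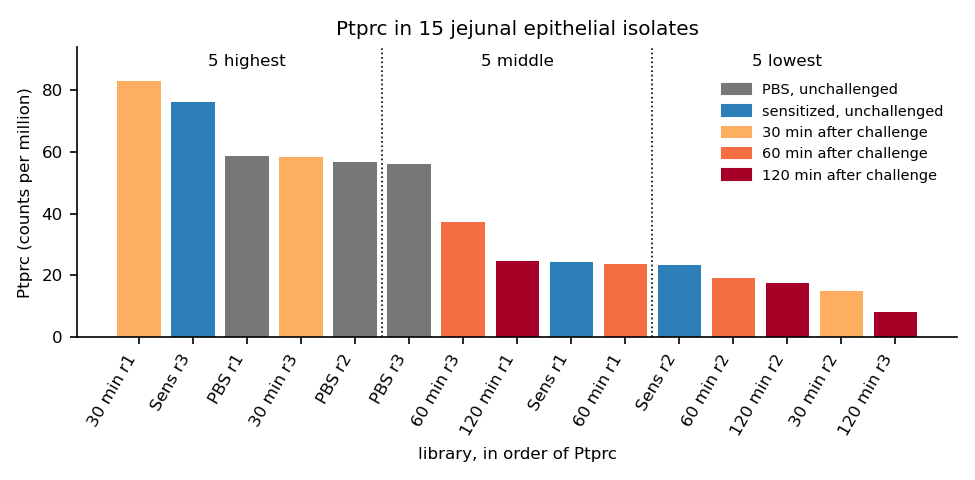
Ptprc in CPM (vertical axis) for each of the 15 libraries (horizontal axis, 1 bar a library, coloured by study group), in falling order with dotted lines at the borders of the 2 sides. The first 6 bars stand at 56.2 or above and the last 8 at 24.6 or below, with 1 library at 37.2 between them.

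The sides did not hold the study groups evenly. The high side held 2 PBS, 1 sensitized and 2 30-min libraries, and the low side held 1 sensitized, 1 30-min, 1 60-min and 2 120-min libraries. No PBS library was low and no library from 60 or 120 min after challenge was high. Rank and group can therefore not be fully told apart in the comparison of sides, and values centred within groups are given beside the counts. Mitochondrially encoded genes took 16.9 to 26.7% of counts in the high libraries and 15.7 to 19.6% in the low ones, and their part in the differences was not tested.

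Ptprc is spliced in 3 cassette exons near its 5' end, exons 4, 5 and 6, of 129, 147 and 141 bases here, and leukocytes choose among them: B cells keep all 3, and activated and memory T cells skip them. Transcripts with none of the 3 held 49.98 to 66.6% of the estimated Ptprc counts in the high libraries, with a median of 57.6%, and 44.6 to 77.0% in the low ones, with a median of 65.7%. Transcripts with all 3 held 19.4 to 31.5% in the high libraries and 0 to 45.6% in the low ones. Both forms were thus present together in every high library, and the shares of the 2 sides overlapped. The low libraries spread more widely around fewer counts: the share of the all-exon form was 0 in the 120-min replicate 3, where Ptprc had 180 counts in all, and 45.6% in the 30-min replicate 2, where it had 233.

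The promoters of Ptprc and of a T-cell and a B-cell gene that were high with it, Cd8a and Cd79a, are shown to let their sequence be read beside their levels. Each holds 250 bases before to 50 after a RefSeq start on GRCm38.p6 and is read 5' to 3' on the gene's strand. Where a gene had more than 1 start, the window with the highest coordinate was used. The Ptprc window lies wholly within the gene bounds given above, and the start used for Cd79a also lies inside its gene. Ptprc lies at chr1:138175256-138175555 on the minus strand, Cd8a at chr6:71373177-71373476 on the plus strand and Cd79a at chr7:24897247-24897546 on the plus strand. Capitals mark AGGAAG on either strand (CTTCCT is its reverse complement), a core sequence that ETS-family factors, among them the lymphocyte factor Ets1, bind.
Ptprc: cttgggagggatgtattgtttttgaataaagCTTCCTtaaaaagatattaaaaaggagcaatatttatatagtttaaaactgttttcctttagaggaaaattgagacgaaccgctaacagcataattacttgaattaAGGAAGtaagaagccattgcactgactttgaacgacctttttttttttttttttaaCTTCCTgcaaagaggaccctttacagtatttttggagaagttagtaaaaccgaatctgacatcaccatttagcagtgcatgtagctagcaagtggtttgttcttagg
Cd8a: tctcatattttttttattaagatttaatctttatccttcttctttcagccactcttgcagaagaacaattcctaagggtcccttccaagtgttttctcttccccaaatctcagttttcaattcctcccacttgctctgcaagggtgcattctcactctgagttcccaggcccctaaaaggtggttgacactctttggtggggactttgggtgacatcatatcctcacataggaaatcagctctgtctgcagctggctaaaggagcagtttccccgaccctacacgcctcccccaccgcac
Cd79a: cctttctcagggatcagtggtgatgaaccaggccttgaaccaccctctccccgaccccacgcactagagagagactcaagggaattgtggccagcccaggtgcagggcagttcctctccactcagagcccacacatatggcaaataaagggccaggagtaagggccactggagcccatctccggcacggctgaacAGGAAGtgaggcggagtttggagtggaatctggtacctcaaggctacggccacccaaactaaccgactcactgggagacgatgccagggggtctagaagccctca
The Ptprc window held 3 matches, the Cd79a window 1 and the Cd8a window none. AGGAAG stood in 35.4% of all 32851 promoters of the RefSeq table and in 33.8% of the 13623 that matched a gene past the low-count filter. Among the genes that were higher in the high libraries by the definition below, 332 of 490 matched by symbol, and 53.6% of their 450 promoters held it. By marker list, 9 of 12 T-cell, 13 of 20 pan-leukocyte and 5 of 12 B-cell promoters held AGGAAG, as did 6 of 10 of the general epithelial and 4 of 17 of the enterocyte list. TGTGGT, a core sequence of RUNX factors, searched the same way on both strands, stood in 16.8%, 13.1% and 23.1% of the same 3 sets and in none of the 3 windows printed. A match is a description of the letters, not a bound site.

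Of 52844 annotated genes, 14968 passed the low-count filter. A gene is called higher when its level in every high library exceeded that in every low library and the mean log2 CPM differed by at least 1, and lower in the mirror case. By this definition 490 genes (3.27% of 14968) were higher and 10 (0.0668%) were lower. Since the rule ranked these same libraries, the counts describe the sides and are no measure of stability. Without the size limit, 620 genes (4.14%) stood above in all high libraries and 142 (0.949%) below. The difference was therefore uneven: most genes that followed Ptprc did so upward and by more than 1 on the log2 scale, and the 142 that ran against it mostly did so by less. The median difference over all 14968 genes was -0.02.

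Of the 490 higher genes, 448 were protein coding and 29 were segments of antigen receptors or immunoglobulins, and 95 belonged to 1 of the 31 marker lists. Leaving out the 30-min replicate 1 gave 492 higher genes, of which 476 were among the 490. With the PBS libraries left out of the high side, 654 genes were higher. With levels and ranks centred within study groups, 365 genes were higher, 292 of them among the 490, on sides that kept 3 of the 5 high and 4 of the 5 low libraries. Ranking by Cd3e in place of Ptprc gave 238, of which 159 were among the 490.

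**Figure D2:**
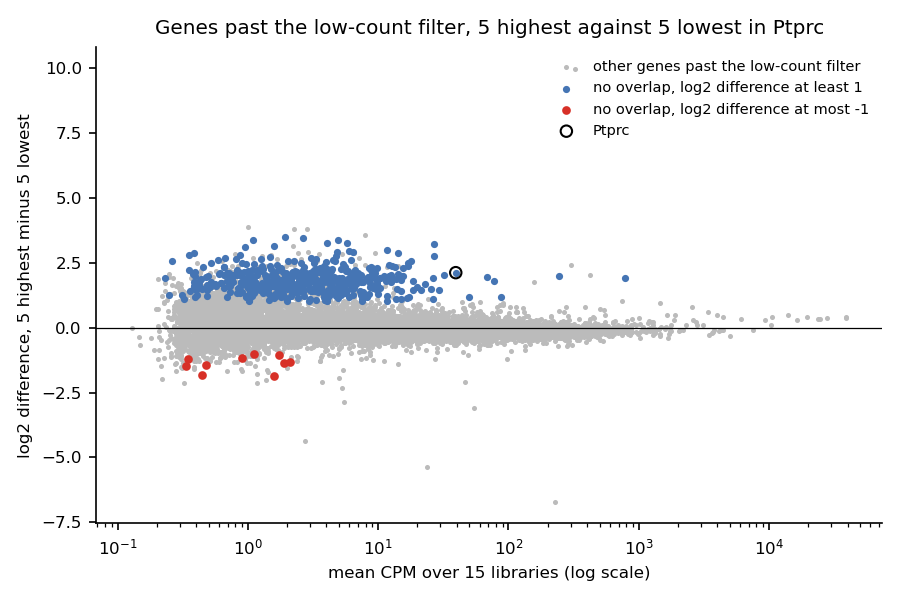
Difference in mean log2 CPM between the 5 high and 5 low libraries (vertical axis) against mean CPM over 15 libraries (horizontal axis, log scale), 1 point for each of 14968 genes. The 490 higher genes (blue) lie above 1 and mostly at low to moderate levels, and the 10 lower genes (red) lie below -1 at mean levels of 2.10 CPM or less.

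Ptprc is itself a general marker of leukocytes, and other such genes are given first. All 19 listed pan-leukocyte genes passed the filter, 17 were higher, and the median difference was 1.87. Their mean log2 CPM was 3.61 ± 0.26 (SD, n = 5) in the high libraries and 1.82 ± 0.49 (SD, n = 5) in the low ones. Ikzf1, which encodes the lymphoid transcription factor Ikaros, stood at 16.7, 23.5, 17.3, 14.1 and 13.2 CPM in the high libraries and 4.47, 4.89, 3.79, 2.97 and 1.53 in the low ones. Rac2, a small GTPase of blood cells, stood at 30.3, 31.1, 24.8, 21.97 and 15.2 CPM in the high libraries and 7.97, 5.37, 7.04, 5.302 and 3.33 in the low ones. Both genes left a wide gap between the sides and were lowest in the 120-min replicate 3, as was Ptprc. The adaptor Sash3, the GTPase inhibitor Arhgdib and the tetraspanin Cd53 differed by 2.26, 2.14 and 2.01 on the log2 scale. The 2 listed genes that were not called were Lcp1, an actin bundler that separated the sides with a difference of only 0.76, and Ptpn7, at 1.65 with overlap.

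T-cell genes include the receptor chains, their co-receptors and the kinases that relay the signal. All 20 passed the filter, 17 were higher, and the median difference was 2.03. Cd6 (chr19:10789341-10830058), a costimulatory receptor of T cells, stood at 9.14, 12.1, 7.88, 11.04 and 6.98 CPM in the high libraries and 2.80, 1.67, 2.13, 0.631 and 0.496 in the low ones. Cd8a (ENSMUSG00000053977.13, chr6:71373427-71379173), the co-receptor of cytotoxic and intraepithelial T cells, stood at 33.8, 35.2, 26.1, 26.8 and 26.04 CPM in the high libraries and 12.2, 5.102, 6.56, 5.24 and 2.43 in the low ones. Neither gene overlapped between the sides, and the 120-min replicate 3 was the lowest library in both. The T-cell receptor constant segment Trbc2, the kinase Lck and the CD3 chain Cd3g differed by 2.45, 2.29 and 2.23. Cd4, the co-receptor of helper T cells, had 6.097, 3.32, 2.61, 7.29 and 4.25 CPM in the high libraries and 1.62, 2.63, 1.01, 0.821 and 0.676 in the low ones, so that the 60-min replicate 2 reached the level of the PBS replicate 1 and the gene was not called in spite of a difference of 1.79. Cd247 and Cd5 overlapped as well.

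Of 20 annotated genes of intraepithelial and cytotoxic lymphocytes, 18 passed the filter, Klrk1 and Eomes did not, and 14 were higher, with a median difference of 2.08. The list's mean log2 CPM was 2.70 ± 0.19 (SD, n = 5) in the high and 0.70 ± 0.56 (SD, n = 5) in the low libraries. Gzmb (ENSMUSG00000015437.5, chr14:56258838-56262260), a cytotoxic granule protease, stood at 33.97, 32.98, 13.96, 20.02 and 19.3 CPM in the high libraries and 6.62, 2.09, 3.68, 1.89 and 1.76 in the low ones. Its difference of 2.97 was the largest of this list, and the gap lay between the PBS replicate 1 and the sensitized replicate 2. Gzma, a second granzyme, and Ccl5, a chemokine stored by cytotoxic cells, differed by 2.88 and 2.57. Itgae, the alpha chain of CD103, had 28.6, 32.1, 26.8, 26.3 and 28.9 CPM in the high libraries and 10.2, 5.48, 4.96, 4.797 and 2.34 in the low ones. The 5 high values of Itgae lay close together, while the low ones spread by over 4 times. Fasl, the death ligand, was higher by 2.37 at levels of 3.11 CPM or less. Trdc, the constant segment of the delta chain, overlapped, with 5.74, 6.07, 6.36, 2.45 and 4.76 CPM in the high libraries and 2.53, 1.61, 2.29, 1.83 and 1.397 in the low ones.

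B-cell genes showed the largest median of all lists, 2.29, with 13 of 14 higher and all 14 past the filter. Cd79a (ENSMUSG00000003379.7, chr7:24897381-24902197), a signalling chain of the B-cell receptor, stood at 9.19, 21.9, 10.8, 11.2 and 7.71 CPM in the high libraries and 0.969, 4.14, 2.51, 0.884 and 0.496 in the low ones. Ms4a1, which encodes CD20, stood at 3.69, 11.7, 7.06, 4.39 and 3.69 CPM in the high libraries and 0.485, 2.09, 2.24, 0.189 and 0.541 in the low ones. The sensitized replicate 3 held the highest value of both genes, and the 60-min replicate 2 was among the highest of the low side. Bank1, a scaffold of B-cell receptor signalling, had the largest difference of any listed gene, 3.16, from levels of 1.47 to 6.64 against 0.0631 to 0.806 CPM. Fcmr, the receptor for IgM, differed by 2.36. Cr2, the complement receptor, overlapped. The list depended on the ranking gene: 3 of the 14 were higher with libraries ranked by Cd3e and 6 with levels and ranks centred within study groups.

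Genes of germinal centres, where B cells mutate their receptors, passed the filter in 6 of 10 cases, and 3 were higher. Among them, the follicle homing receptor Cxcr5 stood at 1.68, 4.59, 1.41, 2.596 and 1.76 CPM in the high libraries and 0.0539, 1.24, 0.747, 0.568 and 0.0901 in the low ones. The transcription factor Mef2b differed by 1.95. The sensitized replicate 3 was highest in Cxcr5, and both genes stood at 1.24 CPM or below in the low libraries. Bcl6, the master factor of germinal-centre cells, differed by -0.01.

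Plasma-cell genes spread widely over the low libraries, with an SD of 0.90 in mean log2 CPM against 0.28 over the high ones. All 10 passed the filter, 4 were higher, and all 10 had a positive difference, with a median of 1.83. None was higher with libraries ranked by Cd3e. Igha, the heavy chain of IgA and the most abundant listed immune transcript, stood at 977, 886, 1667, 1309.5 and 1627 CPM in the high libraries and 659, 843, 249, 366 and 80.6 in the low ones. The sides were closest at the sensitized replicate 3, with 886, and the 60-min replicate 2, with 843. Jchain, the joining chain of secreted IgA, had 175, 162, 329, 247 and 337 CPM in the high libraries and 115, 179.7, 48.2, 91.8 and 19.6 in the low ones and overlapped. The order of the libraries for Igha and Jchain differed from that of Ptprc: among the high libraries the PBS libraries and the 30-min replicate 3 led, and the 30-min replicate 1 and the sensitized replicate 3, which led in Ptprc, came after them. Pou2af1, Mzb1 and Ighm, genes of B cells and of antibody secretion, differed by 2.37, 2.04 and 2.01. Immunoglobulin genes share sequence, and CC027 alleles may differ from the reference, so that their assigned counts are uncertain.

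Compared per length, in TPM, which divides counts by transcript length, the ratios of lymphocyte genes varied between libraries on both sides. The ratio of Cd79a to Ptprc was 0.286 to 0.551 in the high libraries and 0.101 to 0.500 in the low ones. The ratio of Cd3e, a CD3 chain, to Ptprc was 0.307 to 0.452 in the high and 0.210 to 1.22 in the low libraries. Both ratios overlapped, and the Cd3e ratio held the narrower range on the high side. The 1.22 was that of the 120-min replicate 3, where Cd3e had 4.68 TPM. In that library Cd3g, Cd8a and Trbc2 stood at 1.82, 0.994 and 1.38 TPM, the lowest of all 15. Its Cd3e CPM was among the 5 lowest. Summed TPM weighs short transcripts heavily: in the 120-min replicate 2, 4 counts of a 364-base transcript made 30.7% of Ptprc TPM. These ratios are therefore an uncertain measure of lymphocyte classes. Cd8a exceeded Cd4 in every library, by 4.51 to 13.2 times on the high side and 2.26 to 9.69 times on the low side. The alpha-beta constant segment Trac exceeded the gamma-delta segment Trdc in every library too, by 4.85 to 29.1 times in the high and 4.12 to 8.53 times in the low libraries. Gzmb over Cd3e was 1.46 to 3.26 in the high and 0.321 to 1.29 in the low libraries, with no overlap. It was picked out after the values of 9 ratios were seen, and its 0.321 was also that of the 120-min replicate 3. With another CD3 chain, Cd3g, below the line the sides overlapped, at 0.816 to 1.45 against 0.464 to 0.898.

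Genes of macrophages and dendritic cells followed Ptprc less evenly. Of 22 listed genes 21 passed the filter, and 4 were higher, with a median difference of 0.98. Cd86, a costimulatory ligand of antigen-presenting cells and B cells, stood at 2.97, 3.25, 2.61, 2.197 and 2.78 CPM in the high libraries and 0.269, 1.504, 0.9598, 0.252 and 0.225 in the low ones. The integrin Itgax, the signalling adaptor Tyrobp and the lysosomal protein Cd68 differed by 1.53, 1.41 and 1.11. None of these 4 overlapped between the sides. The macrophage growth factor receptor Csf1r had 14.5, 5.79, 11.1, 5.99 and 13.7 CPM in the high libraries and 3.55, 7.63, 5.97, 2.08 and 3.604 in the low ones and overlapped. C1qa, a complement gene of resident macrophages, overlapped likewise at 16.2, 3.74, 11.8, 5.69 and 8.73 CPM in the high libraries and 4.25, 4.83, 5.44, 1.96 and 5.09 in the low ones. Summed over the list, levels were 154 to 248 CPM in the high, 116 to 212 in the middle and 120 to 165 in the low libraries, so that the sides overlapped.

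MHC class II genes, which present antigen and are made by B cells, dendritic cells, macrophages and stimulated enterocytes, were higher in 8 of 10 cases, and all 10 passed the filter. The count depended on the choice of libraries: it was 2 of 10 with 6 libraries a side and 0 of 10 with libraries ranked by Cd3e, where the median difference of 1.91 became 1.11. Their summed level was 710 to 891 CPM in the high libraries and 114 to 364 in the low ones, and the 2 sides did not overlap. Cd74, the invariant chain, stood at 459, 495, 375, 415 and 408 CPM in the high libraries and 53.1, 201, 184, 120.3 and 59.4 in the low ones. Ciita, the master activator of the class, stood at 20.5, 29.7, 14.2, 14.4 and 18.6 CPM in the high libraries and 3.12, 7.63, 6.399, 8.58 and 1.62 in the low ones, and H2-Aa differed by 1.97. The PBS replicate 3, almost level with the high side in Ptprc, had 137 CPM of Cd74 and 4.08 of Ciita, within the range of the low side for both. H2-Eb1 differed by 0.44 with overlap. The class is polymorphic, and which of its cells made the RNA was not tested.

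Mast-cell and granulocyte genes gave little, and innate lymphoid genes more. Of 11 mast-cell genes 5 passed the filter, none was higher, and the median difference was 0.35, which ran from 0.25 without the 120-min replicate 3 to 0.71 without the PBS replicate 2. Mcpt1, the mucosal mast-cell protease, stood at 8.18, 7.56, 13.2, 5.54 and 3.63 CPM in the high libraries and 15.03, 3.22, 2.13, 3.66 and 1.22 in the low ones, with its highest value in a low library. With single libraries left out its difference was 0.64 to 1.52, and that of Hdc, another listed gene, was -0.80 to -0.19. Of 11 annotated granulocyte genes 3 passed and none was higher, and S100a8 and Elane had no count in any library. Innate lymphoid genes passed in 5 of 10 cases, all 5 with a positive difference. Their median was 1.25, and 0.98 to 1.40 with single libraries left out. Only 1 was higher: Il7r, the interleukin-7 receptor, which T cells also carry, by 1.81. Of the 6 listed genes of red cells 5 passed, none was higher, and the median difference was 0.22, which ran from -0.10 without the sensitized replicate 3 to 0.73 without the 30-min replicate 1. The beta-globin Hbb-bs ran from 4.37 to 37.4 CPM in the high and from 4.73 to 29.8 in the low libraries, with its lowest high-side value in the 30-min replicate 1.

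Chemokine and homing genes mostly followed Ptprc, with a median difference of 1.44 and 10 of the 11 past the filter positive. Itgb7, Itga4 and Ccr7, the integrin chains and chemokine receptor that lymphocytes carry, were the 3 higher genes among 11 past the filter, with differences of 2.22, 1.62 and 1.96. Itgb7, which pairs with CD103 and with Itga4, stood at 17.8, 17.02, 14.7, 13.8 and 13.6 CPM in the high libraries and 5.98, 4.19, 3.04, 2.59 and 1.67 in the low ones. Ccl25, the chemokine that small-intestinal enterocytes make to draw such cells, differed by -0.08. The lymphocyte receptors S1pr1, Cxcr3 and Cxcr6 differed by 2.39, 1.81 and 1.44, each with overlap.

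**Figure D3:**
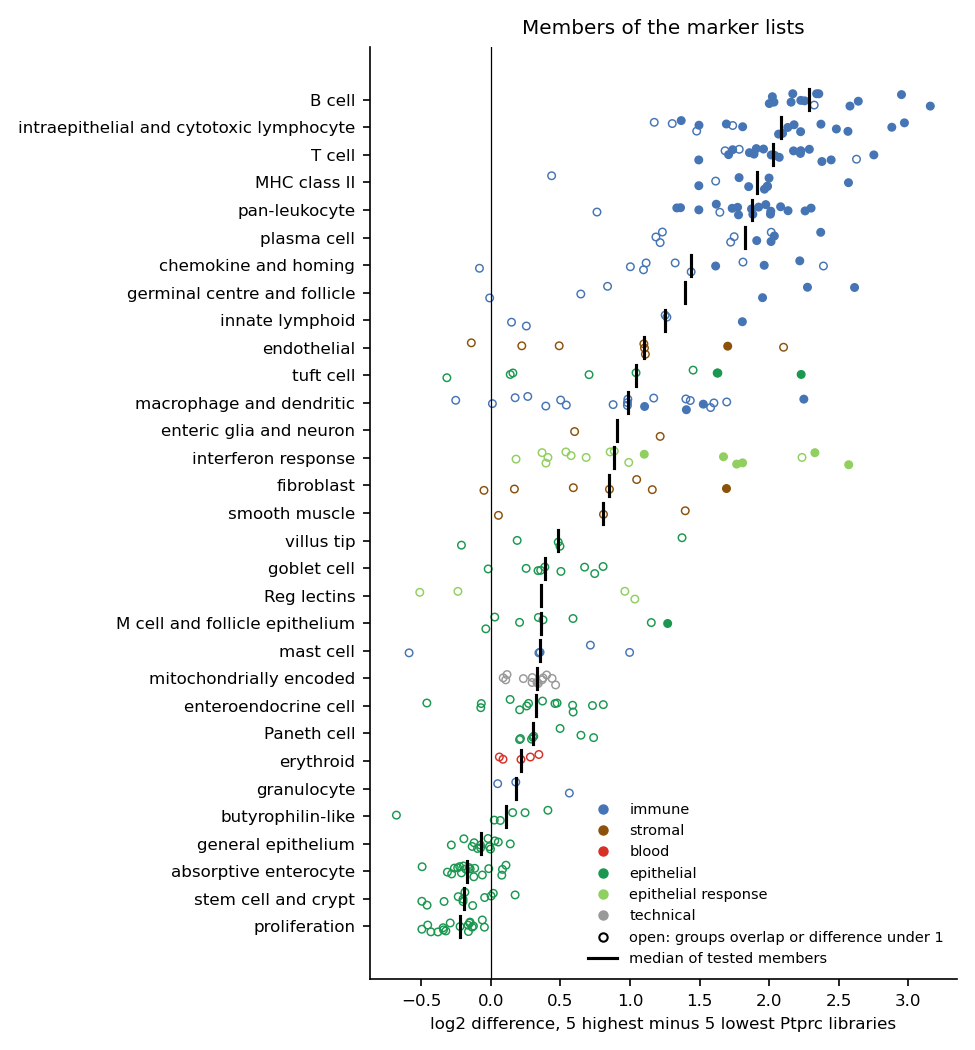
Difference in mean log2 CPM between the 5 high and 5 low libraries (horizontal axis) for each member past the low-count filter of 31 marker lists (vertical axis, ordered by median), 1 point a gene, with filled points for genes called higher and black bars for the list medians. B-cell, cytotoxic, T-cell, MHC class II and pan-leukocyte lists have medians of 1.87 to 2.29, and the epithelial, enterocyte, stem-cell and proliferation lists lie between -0.22 and -0.07.

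Interferon-response genes, which leukocytes and epithelial cells both express, were higher in 6 of 17 cases, and 10 of 17 separated the sides. Nlrc5, the activator of MHC class I genes, stood at 8.58, 6.92, 5.76, 5.14 and 5.84 CPM in the high libraries and 0.754, 1.72, 1.07, 0.884 and 0.721 in the low ones. Igtp, an interferon-induced GTPase, stood at 35.1, 42.8, 16.1, 16.7 and 16.7 CPM in the high libraries and 2.91, 7.197, 5.55, 3.98 and 4.15 in the low ones. In Igtp the 30-min replicate 1 and the sensitized replicate 3 stood more than 2 times above the other 3 high libraries, whereas Nlrc5 was more even. The GTPase Gbp2, the nucleic-acid sensor Zbp1 and the checkpoint ligand Cd274 differed by 1.81, 1.77 and 1.67. Isg15, Ifit1 and Ifit3, targets of type I interferon, differed by 0.69, 0.54 and 0.40 and overlapped. Whether the leukocytes themselves or the epithelium made these transcripts was not tested.

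The summed fibroblast level and the smooth-muscle genes Tagln and Des stood out in 1 high library. The summed endothelial level, which includes Pecam1, was also above the low side in the other 4 high libraries. Of 15 fibroblast genes 7 passed the filter, 1 was higher, and the median of 0.85 became -0.16 without the 30-min replicate 1. Col3a1, a fibrillar collagen, stood at 58.4, 0.494, 0.3803, 0.0499 and 0 CPM in the high libraries and 0.539, 2.31, 0.3199, 0 and 0 in the low ones. Only the first of these 10 libraries held more than 2.31 CPM. The single higher gene was Vim, an intermediate filament that leukocytes share with fibroblasts, at 35.3, 16.5, 9.995, 13.8 and 12.03 CPM in the high libraries and 5.98, 4.57, 4.69, 4.103 and 4.82 in the low ones. Vim remained higher without the 30-min replicate 1. Of 9 smooth-muscle genes 3 passed, none was higher, and the median of 0.81 became 0.13 without that library. Tagln and Des stood at 13.6 and 10.2 CPM there and at 1.40 and 0.76 or less in the other 4 high libraries. Mylk, which also passed, differed by -0.06 to 0.12 with single libraries left out. Of 13 endothelial genes 8 passed, and the median of 1.10 became 0.55 without the 30-min replicate 1. The summed endothelial level was 57.0 CPM in that library, 22.4 to 25.1 in the other 4 high libraries, 15.7 to 22.3 in the middle ones and 16.9 to 21.7 in the low ones. The sides did not overlap with or without that library. Closest were the PBS replicate 2 at 22.4 and the 60-min replicate 2 at 21.7, which include 4.76 and 1.397 CPM of Pecam1. The gap between the sides thus rested on Pecam1. The only higher endothelial gene was Pecam1, which platelets and leukocytes also carry, at 9.105, 4.03, 2.82, 3.79 and 4.76 CPM in the high libraries and 1.83, 1.397, 0.9598, 1.26 and 1.26 in the low ones, while Plvap, restricted to vessels, had 9.79 CPM in the 30-min replicate 1 and 1.25 or less in the other 9. Of 9 genes of enteric glia and neurons 2 passed the filter and none was higher. Their median of 0.91 stayed between 0.75 and 1.09 with single libraries left out. The list's sum was 8.86 CPM in the 30-min replicate 1, 1.85 to 3.97 in the other 4 high libraries and 1.44 to 2.63 in the low ones, with overlap.

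Genes of the general epithelium, enterocytes, crypts and the cell cycle had medians near 0. Of the 13 general epithelial, 18 enterocyte, 12 stem-cell and crypt and 17 proliferation genes, all of which passed the filter, none was higher or lower. Their median differences were -0.07, -0.17, -0.19 and -0.22. Epcam stood at 1144, 1246, 1234, 1268 and 1211 CPM in the high libraries and 1377, 1047, 1416, 1059 and 1258 in the low ones, Vil1, the microvillus protein villin, at 1401, 1844, 1244, 1519.7 and 2012 CPM in the high libraries and 1634, 1701, 1893, 1575 and 1883 in the low ones, and both overlapped throughout. The summed level of the general epithelial list was 12329 to 14545 CPM in the high and 12458 to 16183 in the low libraries. All 17 proliferation genes had a small negative difference and none separated the sides. Mki67, the marker of cycling cells, had 171, 127, 175, 158 and 144 CPM in the high libraries and 129, 243, 170.1, 247 and 244 in the low ones, with the highest values in 3 low libraries and the lowest in the sensitized replicate 3.

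Genes of the villus tip, where enterocytes end their life, had a median difference of 0.48, with 4 of 5 positive and none called. Nt5e, which makes adenosine from AMP outside the cell, stood at 4.93, 3.96, 3.69, 2.297 and 3.29 CPM in the high libraries and 0.7001, 1.34, 1.28, 2.71 and 1.08 in the low ones, a difference of 1.37 with overlap, and Slc28a2 and Ada differed by 0.50 and 0.48. Which cells made the Nt5e transcripts was not tested. Of the 4 Reg lectins past the filter, secreted proteins some of which bind bacteria, none was called either. Reg3g stood at 1910.0, 822, 1736, 665 and 596 CPM in the high libraries and 466.1, 401, 422, 337 and 1122 in the low ones, a difference of 1.04, and Reg3b and Reg1 differed by 0.96 and -0.51, all with overlap.

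Secretory lineages were uneven. Goblet, Paneth and enteroendocrine lists had medians of 0.39, 0.31 and 0.32 with no gene called among 9, 8 and 14 past the filter. With single libraries left out these ran from 0.30 to 0.60, from -0.02 to 0.54 and from 0.04 to 0.52, and the lowest Paneth and enteroendocrine values were those without the 120-min replicate 2. The enteroendocrine median was 0.92 with libraries ranked by Cd3e and -0.48 with levels centred within groups, so no direction is given for it. Agr2, a chaperone of mucus-making goblet cells, stood at 682, 583, 916, 262 and 310.1 CPM in the high libraries and 505, 223, 259, 234 and 264 in the low ones, with overlap. The tuft-cell list had a median of 1.04 and 2 higher genes of 9, Plcb2 and Alox5ap, by 2.23 and 1.63. Of the 9, 8 had a positive difference, Trpm5, the tuft-cell cation channel, with 0.14, and Dclk1, Pou2f3, Il25 and Gfi1b did not pass the filter. The list's summed level was 10.8 to 23.3 CPM in the high, 6.96 to 26.8 in the middle and 5.81 to 10.3 in the low libraries. The gap between the sides was thus narrow, and the highest value lay in a middle library. The median was 0.69 without the 120-min replicate 2 and 0.16 to 1.25 under the alternatives other than single libraries left out. Which cells made these transcripts was not tested. The M-cell list had 1 higher gene of 8, Spib, by 1.27, and Gp2, the M-cell receptor, did not pass. Whether leukocytes or the epithelium made the Spib transcripts was not tested. The butyrophilin-like genes, which epithelial cells use to hold gamma-delta lymphocytes, had a median of 0.11 with none of 6 called, and Btnl6 stood at 22.7, 71.9, 94.5, 17.5 and 130.4 CPM in the high libraries and 66.7, 65.8, 83.3, 92.3 and 109.9 in the low ones.

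**Figure D4:**
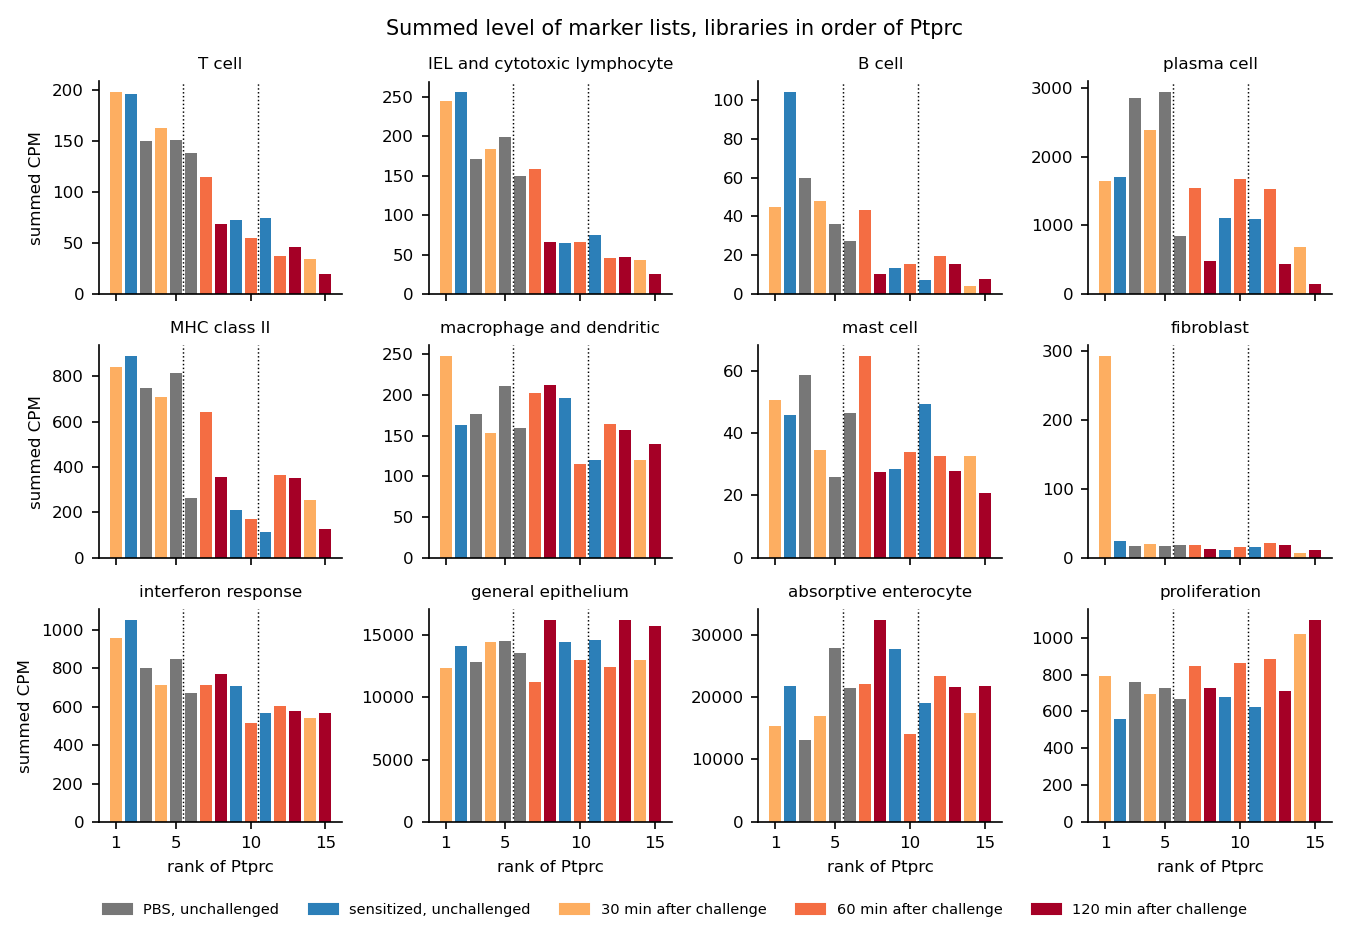
Summed CPM of 12 marker lists (vertical axes, each from 0) in the 15 libraries in falling order of Ptprc (horizontal axes, 1 bar a library, coloured by study group), with dotted lines at the borders of the 2 sides. T-cell and cytotoxic sums of the 5 high libraries, 150 CPM and 171 CPM at the least, exceed those of all low ones, whereas the fibroblast sum stands out in the first library alone at 294 CPM.

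Outside the lists, the largest positive differences among genes above a mean of 2 CPM were again of leukocyte genes. Ccl4, a chemokine of activated lymphocytes and macrophages, differed by 2.67, and stood at 6.698, 7.63, 5.76, 4.59 and 6.01 CPM in the high libraries and 3.29, 0.591, 0.747, 0.442 and 0.676 in the low ones. Il2rg, the common gamma chain of interleukin receptors, stood at 13.998, 13.7, 10.6, 10.4 and 8.45 CPM in the high libraries and 2.80, 2.52, 2.40, 0.884 and 1.17 in the low ones. Ctla4, the inhibitory receptor of activated and regulatory T cells, stood at 6.42, 7.49, 5.595, 7.29 and 5.16 CPM in the high libraries and 2.64, 1.67, 1.01, 0.757 and 0.315 in the low ones. Il2rg and Ctla4 separated the sides widely, while the sensitized replicate 2 came close to the high side in Ccl4. Rasgrp1 and Sh2d2a, signalling proteins of T cells, Il21r, the interleukin-21 receptor, and Stat4, which relays interleukin-12, differed by 2.38, 2.33, 2.36 and 2.32. Srgn, the proteoglycan of secretory granules, Mef2c, a transcription factor of B and myeloid cells, and Cyfip2, a regulator of actin, differed by 2.28, 2.31 and 2.29. Lilr4b, an inhibitory receptor, and Lrmp, a lymphoid membrane protein, differed by 2.33 and 2.27.

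The 10 lower genes were few and weakly expressed. Depp1 (ENSMUSG00000048489.12, chr6:116650609-116652794), a target of FOXO factors, stood at 1.64, 0.706, 1.195, 0.649 and 1.81 CPM in the high libraries and 2.58, 2.42, 2.40, 4.23 and 3.47 in the low ones. It was the only one of the 10 with a mean above 2 CPM. The others were Gm6831, 3110070M22Rik, Rimbp3, Olfr635, Hist1h1b, 1700061H18Rik, Gm5784, Gm4724 and Prkag3, with mean levels of 0.337 to 1.90 CPM, named here after their values were seen. Among better expressed genes that separated the sides by less than 1, the water channel Aqp4 stood at 55.2, 43.9, 23.8, 63.5 and 38.97 CPM in the high libraries and 66.6, 72.8, 64.04, 74.7 and 108 in the low ones. The myosin kinase gene Mylk3, the Wnt receptor Fzd6, the actin-associated Afap1l1 and the steroid enzyme Hsd3b3 differed by -0.86, -0.78, -0.78 and -0.68. Vmn2r53, Mettl22, Hist1h2ac, Syne3, Fam83c and Adnp differed by -0.76 to -0.64.

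Likeness to Ptprc was also measured by Spearman's rank correlation of CPM over all 15 libraries, which share depth and composition and include those that set the sides, so it too is a description. The 12 genes most like it were led by Cd6 at 0.986, and included Cd8a, Zap70 and Fyn of T-cell receptor signalling, Gzmb, Ikzf1 and the factor Ets1, Cd53, P2ry10, Acap1 and Srgn. Ikzf1 had 0.975. Ets1, the factor named above for its motif, stood at 56.9, 57.0, 34.7, 38.1 and 38.2 CPM in the high libraries and 18.96, 17.8, 17.2, 14.5 and 11.9 in the low ones, with no low library above 19.0. The least like were Aldh5a1 at -0.896, a mitochondrial dehydrogenase, then Wiz, Car12, Lrig3, Adnp, Prkaa2, Zmynd11 and Acss2. Aldh5a1 stood at 40.1, 37.5, 37.6, 39.9 and 39.1 CPM in the high libraries and 48.4, 47.2, 44.95, 55.3 and 51.0 in the low ones. The sides did not overlap in Aldh5a1, but its range over the 10 libraries spanned less than 2 times.

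The 5 middle libraries, which set neither side, are given in the order of Ptprc: the PBS replicate 3, the 60-min replicate 3, the 120-min replicate 1, the sensitized replicate 1 and the 60-min replicate 1. Cd8a stood at 24.6, 16.1, 10.5, 13.5 and 7.82 CPM in them, and Cd79a at 4.44, 8.32, 2.45, 1.95 and 3.31.

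The study's own groups were compared by edgeR's quasi-likelihood test over all 15 libraries with Benjamini-Hochberg adjustment over 14968 genes. Every challenge comparison shares the same 3 sensitized controls, 1 of them high and 1 low. Ptprc averaged 56.6 ± 5.10 CPM in PBS, 45.2 ± 38.03 in sensitized, 49.3 ± 31.2 in 30-min, 29.2 ± 16.5 in 60-min and 16.6 ± 8.14 in 120-min mice (SD, n = 3 each, separate mice). The log2 fold change of Ptprc against sensitized controls was 0.14 ± 0.68 at 30 min, -0.63 ± 0.69 at 60 min and -1.44 ± 0.70 at 120 min (standard errors), with edgeR adjusted p of 0.994, 0.749 and 0.318. Sensitized against PBS mice gave -0.33 ± 0.68 with adjusted p of 1, and the joint test over the 5 groups 0.489. No comparison of Ptprc passed 0.05. The SDs within the sensitized and 30-min groups were of the size of the differences between group means.

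edgeR called 188 genes at 120 min (1.26% of 14968), 109 up (0.728%) and 79 down (0.528%), 1 at 60 min (0.00668%), 52 in the joint test (0.347%) and 0 at 30 min and between sensitized and PBS mice. At an unadjusted p under 0.05 the last 2 had 755 and 212 genes, and DESeq2 called 6 in each. Of the 490 higher genes 2, or 0.408%, were called at 120 min by edgeR, 36 by DESeq2, which called 814 of all genes there, and 1 by limma-voom. The limma-voom calls at 120 min are given without its count over all genes. They are therefore not read as a result about these sets or the lists below. Both edgeR calls fell: Dnaja4, a heat-shock co-chaperone, by 2.30 ± 0.46 (standard error, edgeR adjusted p = 0.0290) and Dennd4b, a regulator of Rab GTPases, by 1.75 ± 0.34 (edgeR adjusted p = 0.0290) on the log2 scale. Of the 10 lower genes edgeR called 1, DESeq2 3 and limma-voom 1. The edgeR call was Prkag3, a subunit of the kinase AMPK, which rose by 2.49 ± 0.51 (edgeR adjusted p = 0.0310). The only member of the marker lists that edgeR called was Cdx1, the intestinal homeobox factor, which rose by 0.54 ± 0.12 (edgeR adjusted p = 0.0435). The 490 genes had a median log2 fold change of -1.21 at 120 min, against -0.01 for all genes, and 152 of them had an unadjusted p under 0.05, against 2650 of all 14968. Neither that median nor the calls among the 490 and the 10 genes are independent evidence, because 2 of the 3 120-min libraries set the low side.

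At 120 min the median log2 fold changes of the T-cell, B-cell, plasma-cell and pan-leukocyte lists were -1.37, -1.89, -1.93 and -1.37, and edgeR called no member of these 4 lists. At an unadjusted p under 0.05 they held 8 of 20, 3 of 14, 9 of 10 and 7 of 19 genes, DESeq2 called 2, 1, 5 and 1, and limma-voom none, beside 2650 genes at that p and 814 DESeq2 calls among all 14968. DESeq2 called members of 10 lists in all, limma-voom of 1. Igha averaged 742 ± 125 CPM in sensitized and 210 ± 116 in 120-min mice (SD, n = 3), a log2 fold change of -1.82 ± 0.58 with edgeR adjusted p of 0.143. Cd8a had -1.64 ± 0.71 with edgeR adjusted p of 0.258, and Cd3e -0.92 ± 0.53 with 0.382. With the log2 CPM of Ptprc as a covariate, edgeR called 19 genes at 120 min, 17 of them among the 188, and with the mean of the pan-leukocyte list 13, all among the 188. The count of 188 turned on single libraries. Leaving out the sensitized replicate 1, 2 or 3 left 12, 16 or 7 genes called at 120 min, and leaving out the 120-min replicate 1 or 3 left 12 or 13. Without the 60-min replicate 2 or the PBS replicate 3 it was 79 or 94, without the 30-min replicate 3 it was 116, and without the 60-min replicate 3 it was 344. The 1 call at 60 min became 385 without the 60-min replicate 1, and the 52 of the joint test became 0 without the 120-min replicate 1 or 3.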

How the data were processed

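RNA of 15 jejunal epithelial isolates was measured by sequencing of polyadenylated RNA. The submitters' processing notes name cutadapt 1.18, Salmon 1.2.1 and the build mm10. Which annotation Salmon used is not stated there. The deposited tables hold estimated counts, TPM and effective lengths per transcript, per the file headers. Estimated counts were summed over genes of GENCODE M21 and rounded to whole numbers. Of 139058 transcripts listed, 137943 matched, and the 1115 unmatched held 0.374 to 0.602% of counts. Estimated counts split reads that genes share, so paralogs and immunoglobulin segments are uncertain.

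Libraries were ranked by plain CPM of Ptprc, and 14968 genes passed edgeR's filterByExpr. Levels were scaled by TMM, and differences are of log2 CPM with a prior count of 2. The high and low sides were compared by overlap and size only. Study groups were compared with edgeR 4.0.16 by the quasi-likelihood test with all 15 libraries in 1 fit of group means, 10 residual degrees of freedom and Benjamini-Hochberg adjustment at 0.05. The scripts were tested on simulated data. DESeq2 1.42.0 and limma-voom (limma 3.58.1), both in R 4.3.3, other rankings, 4 or 6 libraries a side, other scalings, no filter, a prior count of 0.5, Ptprc or pan-leukocyte covariates and single libraries left out were alternatives. Leaving out the PBS libraries and 6 against 5 libraries were added after seeing the data.

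Genes named are Ptprc, up to 5 higher genes of each of 31 lists (where none, up to 3 by size with a mean of at least 1 CPM), the 12 largest differences each way outside the lists and the 12 most and 8 least like Ptprc by rank correlation at a mean of at least 2 CPM, without numbered gene models or receptor segments, and list members called between study groups. Others are named to account for a list. A few genes that this rule covers are not reported here. The members, lists and rules were chosen with earlier results of these data known. Replicates were separate mice. Ranges cover the spread between libraries, and counting error is not added.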

Additional observations from a re-analysis of the deposited data

Results flagged for a closer look

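Among 324 groups of 5 values examined, 26 had 1 library set far from the other 4 of its side. Chance gives about 1 in 20 for independent, normally distributed values. The values here are untransformed CPM, and lists stand beside their own members, so the 26 cannot be set against that share. None of these distances was explained or tested further.

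The 30-min replicate 1 was the highest high library for the summed fibroblast list at 294 CPM (the next at 25.1) and the endothelial list at 57.0 CPM, and for Vim at 35.3, Tagln at 13.6, Des at 10.2 and Tyrobp at 9.19 CPM. The sensitized replicate 3 was the highest for the germinal-centre list at 46.2 CPM and for Cyfip2 at 23.5, Cd79a at 21.9, Mef2c at 13.2, Fcmr at 6.78 and Fasl at 3.11 CPM. The PBS replicate 2 was the lowest high library for Mzb1, at 5.84 CPM.

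On the low side, the sensitized replicate 2 was the highest for the goblet list at 14068 CPM and for Agr2 at 505, Mcpt1 at 15.0, Cd274 at 3.39, Ccl4 at 3.29 and Fasl at 1.185 CPM. The 120-min replicate 3, lowest of all in Ptprc, was the highest for the Reg lectins, antimicrobial proteins of the epithelium, at 3335 CPM in sum, with Reg3b at 2080.2 and Reg3g at 1122 CPM, and for Aqp4 at 108 CPM. The 60-min replicate 2 was the highest for Cubn, which encodes an endocytic receptor of the microvilli, at 574 and Bank1 at 0.806 CPM. The 120-min replicate 2 was the highest for Syne3, at 14.1 CPM.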

How the results depend on the processing

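No paired analysis was possible because the titles number the mice individually and the replicate numbers follow the order of deposit. Each side holds 5 libraries, and the ends of the sides lie close to the middle libraries, so the count of lower genes in particular depends on where the sides end. Weakly expressed markers such as Mef2b rest on few counts.

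The count of higher genes lay outside 1.5 times 490 under none of the alternatives but the rank by Cd3e, which gave 238, and was 492 to 586 with single libraries left out. The count of 10 lower genes became 26 ranked by the pan-leukocyte list, 45 with 4 libraries a side, 4 with 6 a side, 18 with no filter, 16 centred within groups and 31 without the PBS libraries, and was 10 to 23 with single libraries left out. Fewer libraries a side make the rule of no overlap easier to meet, and more make it harder. Both counts shift with the number of libraries for that reason alone, so those with libraries left out say little about stability. Ranked by Cd3e, the number of higher members went from 17 to 3 for the pan-leukocyte, 17 to 13 for the T-cell, 14 to 7 for the cytotoxic, 13 to 3 for the B-cell, 8 to 0 for the MHC class II and 4 to 0 for the plasma-cell list. With 6 libraries a side MHC class II held 2 and plasma cells 2, and centred within groups B cells held 6. Of 713 list medians recomputed, 687 moved by less than the spread between libraries. That limit is widest for the lists least even within a side. The fibroblast list had SDs of 2.28 in the high and 0.93 in the low libraries, so its change from 0.85 to -0.16 counted as unmoved. Several settings also kept the same sides, so the 687 is no measure of stability.

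Between study groups, the calls at 60 min, at 120 min and in the joint test became 0, 19 and 1 with Ptprc as a covariate and 0, 13 and 1 with the pan-leukocyte covariate. With no filter they were 49 at 60 min and 380 in the joint test. DESeq2 gave 6 for sensitized against PBS, 6 at 30 min, 189 at 60 min, 814 at 120 min and 1092 jointly, and limma-voom 0 at 60 min and 26 jointly. With single libraries left out the counts ran from 0 to 0 for sensitized against PBS, 0 to 1 at 30 min, 0 to 385 at 60 min, 7 to 344 at 120 min and 0 to 180 jointly. Against sensitized controls, the log2 fold change of Cd3e reversed to -0.049 at 30 min and 0.11 at 120 min with the Ptprc covariate and to -0.13 and 0.076 with the pan-leukocyte covariate, which turned Ptprc to -0.14 at 30 min. With single libraries left out Ptprc ran from -0.29 to 1.09 at 30 min and -1.18 to 0.32 at 60 min, and Cd3e from -0.51 to 0.74 at 30 min. The call of Cdx1 was lost under 13 of 21 alternatives, those of Dnaja4, Prkag3 and Dennd4b under 9, 8 and 7. The cause of these shifts was not tested.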
